A study of Mus musculus with 6 samples.

Results

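The genes of the cytosolic translation initiation factors (eIFs) and elongation factors (eEFs) were followed through endoplasmic reticulum (ER) stress in mouse intestinal epithelial monolayers. Members were all genes whose GENCODE mouse symbol begins with Eif and a digit from 1 to 6, or with Eef and 1 or 2, without the Eif4ebp and Eif2ak genes. This rule gave 61 of the 27998 genes in the deposited matrix and used no measured value. Of these 61 genes, 55 passed the filter on low counts in enterocytes and 53 in goblet cells. Eef1a2, Eif4e1b, Eif2s3y and Eif2c5, a noncoding gene by its annotation, had 0 unique molecular identifiers (UMIs) in all kept cells, which allows up to 0.0348 CPM (UMI counts scaled to a common library size) at a limit of 3 UMIs in 86163736, counting error only. Eif5a2 and Eef1akmt3 were detected but passed the filter in neither class, and Eif2b3 and Eif3j2 passed it in enterocytes but not in goblet cells.

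The study compared 3 groups of 2 libraries, called biological replicates in the series text: monolayers given tunicamycin at 0.5 µg/ml for 13 h, the same dose for 25 h, and DMSO as the vehicle. All monolayers were grown from intestinal spheroids of B6 mice that combine Rosa26-floxed STOP-Cas9 with cmv-cre, so every group, the DMSO group included, carries the Cas9 and Cre alleles. Tunicamycin blocks N-linked glycosylation and so causes ER stress. Treatment began on differentiation day 3, the 13 h wells stood in DMSO until their tunicamycin was added, and all wells were harvested on day 4. The labels conflict on the origin, with small intestine as tissue but colonic spheroids in the culture protocol, and give no age or number of mice.

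Initiation factors bring the initiator tRNA, the small ribosomal subunit and the capped mRNA together, and elongation factors then deliver aminoacyl-tRNAs and move the ribosome along the message. The factor eIF2 carries the initiator tRNA and is recharged with GTP by eIF2B. During ER stress the kinase PERK phosphorylates the alpha subunit of eIF2, which blocks eIF2B and lowers initiation on most mRNAs. The mRNAs of many elongation factors and some eIF3 subunits, like those of ribosomal proteins, are known to open with a run of pyrimidines (a 5′ terminal oligopyrimidine, or TOP, tract), which places their translation under control of the kinase mTOR. Goblet cells, which secrete mucins, depend on high rates of protein synthesis in the ER. Only mRNA was measured here, neither phosphorylation nor translation.

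Libraries held 537 to 1178 kept cells and 9432005 to 19539013 UMIs. By the authors' own classes, 4368 kept cells were enterocytes, 550 were goblet cells and 108 belonged to the class named tuft. The goblet class carried all 9 goblet markers in every library, and the enterocyte class carried at least 8 of 10 enterocyte markers, with the colonic marker Aqp8 at 0 in 5 of its 6 libraries and Fabp1 at 0 in 5. Markers of immune and of enteroendocrine cells summed to at most 1.54 CPM in any library of either class. Goblet markers in the enterocyte class summed to 3337 and 3236 CPM at 13 h and 3027 and 2350 CPM at 25 h, against 3925 and 3857 CPM in DMSO, and their part in the enterocyte results was not tested. As a check of the treatment, Hspa5, the ER chaperone BiP, had 4992 and 5120.1 CPM at 13 h and 2916 and 3155 CPM at 25 h, against 159 and 214 CPM in DMSO in enterocytes, and Ddit3, the stress transcription factor CHOP, had 1349 and 1284 CPM at 13 h and 758 and 786 CPM at 25 h, against 64.6 and 88.2 CPM in DMSO. Both genes stood far above DMSO in all 4 tunicamycin libraries. Mitochondrial genes took 7.95% to 9.34% of enterocyte UMIs in those libraries and 9.41% and 9.53% in DMSO, and their part in the results was not tested. Of the cell barcodes, 12 were found in several libraries and were treated as separate cells.

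In enterocytes most tested translation factor genes were called higher at each time. At 13 h against DMSO, 37 of the 55 tested members were higher, 2 were lower and 16 were not called, where 23.8% of all 11145 tested genes were higher and 23.8% were lower. At 25 h against DMSO, 40 members were higher, 4 lower and 11 not called, against 26.1% of all tested genes higher and 24.2% lower. A call is an adjusted p below 0.05 in edgeR's quasi-likelihood test with Benjamini-Hochberg adjustment over all tested genes. The members' median log2 fold change was 0.26 at 13 h and 0.50 at 25 h, and the median of all tested genes was 0.01 at 13 h and 0.03 at 25 h. Of the 37 calls at 13 h, 28 were also made under every alternative tried, and so were 37 of the 40 at 25 h. Here and below, an alternative that returned no adjusted p for a gene was passed over for that gene. Both lower calls at 13 h and 2 of the 4 at 25 h held in the same way.

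From 13 h to 25 h more members rose than fell. At 25 h against 13 h, 19 members were higher and 6 lower, against 10.4% of all tested genes higher and 10.9% lower, with a median log2 fold change of 0.09. The 6 lower members are near the share of all tested genes, so no fall of the members as a set was read from them. Of the calls, 14 of the 19 higher and 2 of the 6 lower were made under every alternative. The genes that were higher at 25 h than at 13 h lay mostly in eEF1 (4 of 5 tested), eEF2 and eIF3 (8 of 14 tested). No tested member of eIF2 (3 tested), eIF2B (5 tested), eIF5A (1 tested), eIF2A and eIF2D or eIF4A3 passed that test in either direction. With so few genes, the absence of calls is near the shares of all tested genes, and no contrast was read from it. Cytosolic ribosomal protein genes, measured in the same libraries, had medians of 0.30 at 13 h and 0.84 at 25 h against DMSO (65 and 75 of 83 higher), and of 0.52 at 25 h against 13 h (67 of 83 higher). Cytosolic aminoacyl-tRNA synthetase genes had medians of 1.22 at 13 h and 1.01 at 25 h against DMSO (19 of 20 higher each time), and of −0.22 at 25 h against 13 h (2 of 20 higher, 11 lower). The enterocyte markers summed to 4388 and 4173 CPM at 13 h and 3236 and 3225 CPM at 25 h, against 6345 and 6107 CPM in DMSO, and their part in these results was not tested.

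Together the members took 1.75% and 1.77% of enterocyte UMIs in the 13 h libraries and 2.16% and 2.14% in the 25 h libraries, against 1.31% and 1.34% in the DMSO libraries. The 3 groups did not overlap. In goblet cells the shares were 1.78% and 1.66% at 13 h and 2.22% and 2.20% at 25 h, against 1.07% and 1.10% in DMSO. Levels were very unequal: in DMSO enterocytes 4 members were over 1000 CPM, 23 over 100 CPM and 8 under 1 CPM. The 5 most abundant genes (Eif2s2, Eef1a1, Eif1, Eef2 and Eif3f) made up 61.7% of the members' total there. With this 3′ chemistry a UMI stands for a captured 3′ end, so CPM was not divided by transcript length.

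RefSeq promoter windows (GRCm38.p6, 250 bases before to 50 after each annotated start) were available for 47 of the 61 members. They were searched on both strands for stress and growth motifs. The E-box CACGTG was found in windows of 12 of these 47 genes (25.5%), against 8.09% of 27025 genes with a window. The TGATGNAA core of elements bound by C/EBP-ATF factors was found in 2 (Eef2k and Eif2s3x, 4.26%, against 4.51% of all genes), the UPR element TGACGTGG in 1 (Eif3a, 2.13% against 0.714%) and the ER stress element in 0 (against 0.137%). These matches are descriptions of the windows and were not tested.

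To show that the E-box stood in windows of members that rose and of members that fell, 34 bases from each of 6 windows are printed 5′ to 3′ on the gene's strand, with the E-box in capitals. The first 3 genes were called higher at 25 h in enterocytes and the last 3 were called lower. This even display is not the division of the 12 genes with an E-box. Those not printed here for their E-box, Eif1b, Eif3a, Eif4a1, Eif4e and Eif5a, were also called higher at 25 h, and Eif5a2 was not tested. The UPR element of Eif3a follows, with its letters in capitals as read on the gene's strand, where it appears as its reverse complement.
Eef2: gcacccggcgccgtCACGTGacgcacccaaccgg
Eif3f: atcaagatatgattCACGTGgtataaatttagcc
Eif3k: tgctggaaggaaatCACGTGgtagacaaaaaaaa
Eef2k: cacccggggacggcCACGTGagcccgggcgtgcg
Eif4g1: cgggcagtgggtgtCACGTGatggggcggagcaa
Eif4h: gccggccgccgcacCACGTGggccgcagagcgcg
Eif3a: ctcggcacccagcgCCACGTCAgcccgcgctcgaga
In the order given, these stretches lie at chr10:81176574-81176607 (plus strand), chr7:108934333-108934366 (plus strand), chr7:28981913-28981946 (minus strand), chr7:120842786-120842819 (plus strand), chr16:20672659-20672692 (plus strand), chr5:134639486-134639519 (minus strand) and chr19:60790769-60790804 (minus strand). The Eif4g1 and Eif4h windows belong to RefSeq starts that lie inside the genes' GENCODE spans. Counted from the annotated start, the E-box begins 43 (Eef2), 68 (Eif3f), 44 (Eif3k), 31 (Eef2k), 54 (Eif4g1) and 96 (Eif4h) bases upstream.

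Pyrimidine runs were read at the same starts. A C at the annotated start with at least 4 more C or T letters right after it, whatever letters stand before it, was found in 3 of the 47 genes (Eif3f, Eif2s3x and Eif2c5, 6.38%), against 3.01% of all genes. Of these, Eif2c5 is the noncoding gene that had 0 UMIs in all kept cells. Because an annotated start need not be the first base of the mRNA, a run of at least 8 C or T letters that opens with C within 20 bases of the start was added after the windows had been seen. Such a run was found in 16 of the 61 windows of these 47 genes (26.2%), against 14.3% of all windows. This share counts windows, and some genes have several. Eef1a2, Eif2c5 and Eif2s3y, which had 0 UMIs in all kept cells, are among the genes with such a run. The stretches below run from before to after the annotated start and show the letters of a run in capitals for 4 genes.
Eef1a1: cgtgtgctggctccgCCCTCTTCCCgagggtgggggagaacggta
Eef2: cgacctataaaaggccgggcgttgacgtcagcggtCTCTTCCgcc
Eif3f: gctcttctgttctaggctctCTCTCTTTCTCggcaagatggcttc
Eif2s3x: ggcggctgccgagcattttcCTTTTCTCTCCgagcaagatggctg
They lie at chr9:78481700-78481744 (minus strand), chr10:81176611-81176655 (plus strand), chr7:108934395-108934439 (plus strand) and chrX:94212627-94212671 (minus strand). In Eif3f and Eif2s3x the capitals mark the part of the run from the annotated start on, and C and T letters go on without a break just before it, in lower case. The unbroken run therefore crosses the annotated start in Eif3f, Eif2s3x and Eef1a1. For Eif2s3x and Eef1a1 that RefSeq start lies inside the gene's GENCODE span. Whether any of the printed runs is transcribed and opens the mRNA, as a TOP tract does, was not tested. In Eef2 the run is 7 letters long and lies 16 to 22 bases in, which keeps Eef2 out of the count above.

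The factors eIF1 and eIF1A bind the small subunit and set how strictly the start codon is chosen. All 5 genes of this group were tested in enterocytes, and 4 were higher at 13 h and 5 at 25 h, with none lower. Eif1 (chr11:100319885-100322096, plus strand), the most abundant of them, had 3781 and 3726 CPM at 13 h and 4014 and 4088 CPM at 25 h, against 1824 and 1967 CPM in DMSO. Its log2 fold changes were 0.99 ± 0.05 at 13 h (edgeR adjusted p = 4.22e-10) and 1.10 ± 0.05 at 25 h (edgeR adjusted p = 1.36e-10; SE, 2 libraries per group here and below). The 4 tunicamycin libraries stood apart from both DMSO libraries, with almost all of the rise present by 13 h. Per cell, this came to 67.1 and 68.2 Eif1 UMIs at 13 h and 74.8 and 79.3 at 25 h, against 29.7 and 31.0 in DMSO.

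Eif1a, which encodes an eIF1A protein, had 87.0 and 92.4 CPM at 13 h and 72.5 and 72.5 CPM at 25 h, against 38.1 and 37.8 CPM in DMSO. It was highest in the 13 h libraries, still high in the 25 h libraries and lowest in DMSO, with no overlap between any of the groups. The log2 fold changes were 1.24 ± 0.05 at 13 h and 0.93 ± 0.06 at 25 h against DMSO, and -0.31 ± 0.06 at 25 h against 13 h (edgeR adjusted p = 0.00115). Its X-linked relative Eif1ax had 54.5 and 45.1 CPM at 13 h and 61.7 and 58.3 CPM at 25 h, against 34.6 and 36.0 CPM in DMSO, with log2 fold changes of 0.49 ± 0.08 and 0.76 ± 0.08 at the same times against DMSO. Eif1ad, a relative with a role in maturation of the small subunit, had 64.3 and 61.2 CPM at 13 h and 51.0 and 53.4 CPM at 25 h, against 39.2 and 41.3 CPM in DMSO, above DMSO in all 4 tunicamycin libraries. Eif1b passed the test at 25 h (0.44 ± 0.08, edgeR adjusted p = 0.00029) and had a log2 fold change of 0.17 ± 0.07 at 13 h (edgeR adjusted p = 0.0649). How reads shared by near-identical copies (Eif1 and Eif1b, Eif1a and Eif1ax, Eif3j1 and Eif3j2, Eif4a1 and Eif4a2, and processed pseudogenes) were counted is unknown, so their levels are uncertain to that extent.

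The subunits of eIF2 behaved unequally. Eif2s1, the alpha subunit that PERK phosphorylates, had 41.3 and 43.8 CPM at 13 h and 44.3 and 45.1 CPM at 25 h, against 27.5 and 30.2 CPM in DMSO. Both tunicamycin groups lay above DMSO, and their own ranges lay close together. The log2 fold changes were 0.56 ± 0.07 at 13 h (edgeR adjusted p = 1.2e-05) and 0.63 ± 0.07 at 25 h (edgeR adjusted p = 6.42e-06). Eif2s2, the beta subunit, had 2479 and 2463 CPM at 13 h and 2305 and 2516 CPM at 25 h, against 2419.6 and 2354 CPM in DMSO. Its 25 h libraries spanned the range of both DMSO libraries, and its 13 h libraries lay slightly above them. Its log2 fold changes were 0.05 ± 0.05 at 13 h and 0.01 ± 0.05 at 25 h, with 95% intervals of -0.05 to 0.15 and -0.09 to 0.12. Eif2s3x, the X-linked gamma subunit, had 69.1 and 71.2 CPM at 13 h and 72.0 and 80.0 CPM at 25 h, against 63.6 and 62.5 CPM in DMSO. All 4 tunicamycin libraries were above DMSO. It was called higher at 25 h (0.27 ± 0.06, edgeR adjusted p = 0.00169). Its call at 13 h (0.15 ± 0.06, edgeR adjusted p = 0.0375) was lost with DESeq2 (DESeq2 adjusted p = 0.25). In edgeR it was lost without the filter on low counts (adjusted p = 0.1), with a stricter limit on mitochondrial UMIs (0.108) and with all cells in place of enterocytes (0.0596). Leaving out any of the 4 libraries compared also lost it. The log2 fold changes were then 0.16 and 0.11 without 13 h replicate 1 or 2, and 0.15 and 0.12 without DMSO replicate 1 or 2. Its Y-linked copy Eif2s3y was at 0 UMIs.

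The beta subunit gene was far more abundant than its partners. For each Eif2s1 UMI, enterocytes held 60.0 and 56.2 Eif2s2 UMIs at 13 h and 52.0 and 55.8 at 25 h, against 88.1 and 77.8 in DMSO. In goblet cells the ratio was 58.6 and 48.2 at 13 h and 40.4 and 51.0 at 25 h, against 79.7 and 91.5 in DMSO. In the class named tuft it was 12.1 and 12.8 at 13 h and 11.7 and 7.23 at 25 h, against 6.04 and 11.0 in DMSO. The tuft libraries thus held much lower ratios than either other class, from 12 to 27 cells each.

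The exchange factor eIF2B has 5 subunits, and its genes were expressed at far lower levels. In enterocytes 3 of the 5 (Eif2b1, Eif2b3 and Eif2b4) were called higher at both times and Eif2b2 and Eif2b5 at neither. Eif2b4, a regulatory subunit, had 13.7 and 15.9 CPM at 13 h and 15.2 and 14.9 CPM at 25 h, against 10.2 and 9.29 CPM in DMSO, with log2 fold changes of 0.60 ± 0.11 and 0.62 ± 0.12. Eif2b1, the alpha subunit, had 11.9 and 13.0 CPM at 13 h and 13.5 and 13.0 CPM at 25 h, against 9.57 and 9.10 CPM in DMSO. Its tunicamycin libraries lay above DMSO, with log2 fold changes of 0.42 ± 0.11 at 13 h and 0.50 ± 0.12 at 25 h. The 13 h call was lost with DESeq2 (DESeq2 adjusted p = 0.0833). It was also lost without 13 h replicate 2 (log2 fold change 0.33) or DMSO replicate 2 (0.36). Eif2b3, the gamma subunit, was counted in only 22 and 25 UMIs at 13 h and 16 and 18 at 25 h, against 15 and 11 in DMSO, or 1.81 and 1.88 CPM at 13 h and 2.01 and 2.08 CPM at 25 h, against 0.881 and 0.672 CPM in DMSO. Its log2 fold changes of 1.24 ± 0.32 and 1.38 ± 0.35 rest on those counts. The call at 13 h was lost with DESeq2 (DESeq2 adjusted p = 0.0543) and without DMSO replicate 2 (log2 fold change 1.04). Eif2b2, the beta subunit, had 35.5 and 32.5 CPM at 13 h and 32.0 and 35.3 CPM at 25 h, against 29.1 and 32.6 CPM in DMSO, with groups that overlapped. Eif2b5, the catalytic epsilon subunit, had 27.2 and 29.8 CPM at 13 h and 26.6 and 27.7 CPM at 25 h, against 26.3 and 25.0 CPM in DMSO. Its tunicamycin libraries lay slightly above DMSO without a call, with log2 fold changes of 0.15 ± 0.07 (edgeR adjusted p = 0.103) and 0.08 ± 0.08 (edgeR adjusted p = 0.435).

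Among alternative carriers of initiator tRNA, Eif2a had 59.2 and 61.1 CPM at 13 h and 63.8 and 62.8 CPM at 25 h, against 43.0 and 43.1 CPM in DMSO in enterocytes, above DMSO in all 4 tunicamycin libraries (log2 fold changes 0.48 ± 0.05 and 0.56 ± 0.06). Its exons overlap those of Serp1, an ER stress gene on the opposite strand, and use of strand in counting is not stated, so reads of the pair cannot be told apart. Eif2d had 19.2 and 17.7 CPM at 13 h and 18.5 and 19.0 CPM at 25 h, against 18.7 and 18.9 CPM in DMSO. Its groups overlapped, and neither comparison with DMSO passed the test, with 95% intervals of -0.21 to 0.15 at 13 h and -0.20 to 0.20 at 25 h.

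**Figure D1:**
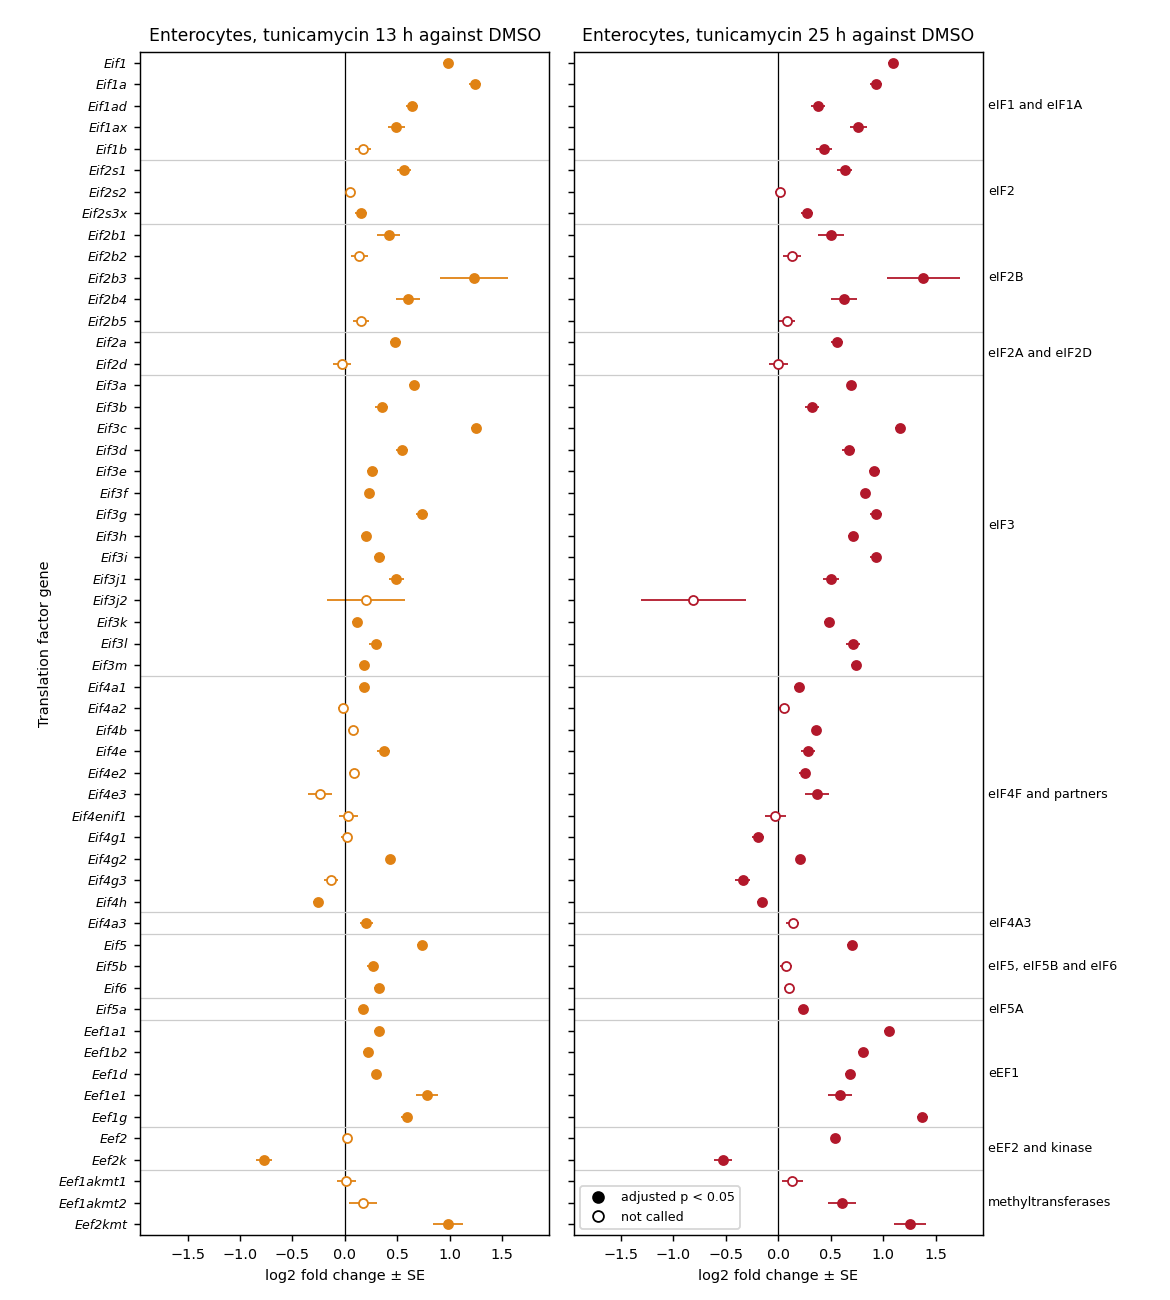
Log2 fold changes (± SE) of the 55 tested members in enterocytes at 13 h (left) and 25 h (right) against DMSO, ordered by factor, with filled points for an adjusted p below 0.05 and open points for the rest. Most points lie right of 0 at both times, and Eef2k is the farthest left of the called members at each.

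The factor eIF3 is the large scaffold that holds the small subunit, mRNA and other factors together. In enterocytes 13 of its 14 tested subunit genes were higher at 13 h and 13 at 25 h, and the remaining gene, Eif3j2, was counted in 14 and 14 UMIs at 13 h and 5 and 4 at 25 h, against 20 and 12 in DMSO. The subunits differed in timing. Eif3c (chr7:126546455-126566411, minus strand), a core subunit, had 301 and 307 CPM at 13 h and 278 and 293 CPM at 25 h, against 129.9 and 125 CPM in DMSO. Its 25 h libraries lay slightly below its 13 h libraries, and all 4 stood far above DMSO, with log2 fold changes of 1.25 ± 0.05 and 1.16 ± 0.05. Eif3a, the largest subunit, had 167 and 169 CPM at 13 h and 172 and 172 CPM at 25 h, against 105 and 108 CPM in DMSO, again level between the tunicamycin times. Eif3b, the subunit that binds eIF3g and eIF3i, had 49.4 and 54.2 CPM at 13 h and 50.5 and 51.2 CPM at 25 h, against 41.0 and 40.3 CPM in DMSO, with log2 fold changes of 0.35 ± 0.06 and 0.32 ± 0.07.

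Other subunits rose mainly later. Eif3f, the most abundant, had 541 and 558 CPM at 13 h and 818 and 844 CPM at 25 h, against 461 and 474 CPM in DMSO. The 3 groups stood in order without overlap, and the log2 fold changes were 0.23 ± 0.04 at 13 h and 0.83 ± 0.04 at 25 h against DMSO, and 0.60 ± 0.04 at 25 h against 13 h (edgeR adjusted p = 5.87e-07). Eif3h, which sits beside eIF3f, had 380.2 and 398 CPM at 13 h and 551 and 553 CPM at 25 h, against 334 and 342 CPM in DMSO, with 0.50 ± 0.05 at 25 h against 13 h. Its smaller call at 13 h against DMSO (0.20 ± 0.05) had an adjusted p of 0.0602 without 13 h replicate 2. Eif3e had 191 and 196 CPM at 13 h and 310.1 and 299.7 CPM at 25 h, against 154 and 169 CPM in DMSO. Eif3i had 106 and 109.9 CPM at 13 h and 157 and 169.7 CPM at 25 h, against 83.5 and 88.3 CPM in DMSO. In both genes the 25 h libraries were far above the others. The log2 fold changes at 25 h against 13 h were 0.65 ± 0.05 for Eif3e and 0.60 ± 0.05 for Eif3i.

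Eif3k had 315 and 317 CPM at 13 h and 408 and 408 CPM at 25 h, against 288 and 296 CPM in DMSO, and its rise was called at 25 h (0.48 ± 0.04, edgeR adjusted p = 5.69e-07). At 13 h its log2 fold change was 0.11 ± 0.04 (edgeR adjusted p = 0.049), a call lost under 11 of 16 alternatives and without any of the 4 libraries compared (adjusted p = 0.207 and 0.273 without 13 h replicate 1 or 2, 0.331 and 0.14 without DMSO replicate 1 or 2). Eif3m (0.56 ± 0.05) and Eif3l (0.42 ± 0.07) were also higher at 25 h than at 13 h, whereas Eif3d (0.12 ± 0.06) and Eif3j1 (0.01 ± 0.08) did not pass that test. Eif3g had 67.9 and 72.2 CPM at 13 h and 81.5 and 78.9 CPM at 25 h, against 42.7 and 41.4 CPM in DMSO, with most of its rise by 13 h (0.74 ± 0.06) and a smaller call at 25 h against 13 h (0.19 ± 0.06). That smaller call was lost with DESeq2 (DESeq2 adjusted p = 0.263). In edgeR it was lost with a stricter limit on mitochondrial UMIs (adjusted p = 0.0747) and without called doublets (0.0507). It was also lost without 13 h replicate 1 (log2 fold change 0.15), 25 h replicate 1 (0.17) or 25 h replicate 2 (0.21). The ratio between the mRNAs of 2 subunits was lowest at 13 h. For each Eif3c UMI there were 1.80 and 1.82 Eif3f UMIs at 13 h and 2.94 and 2.88 at 25 h, against 3.55 and 3.78 in DMSO.

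**Figure D2:**
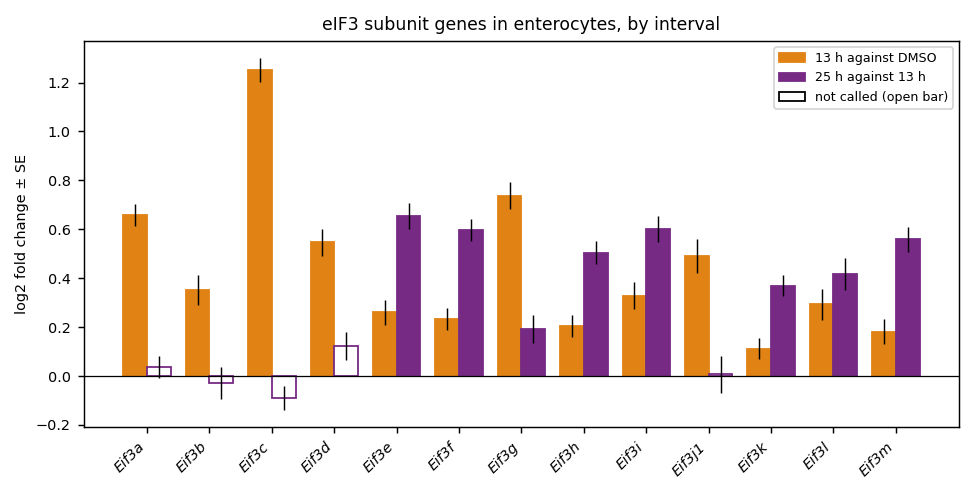
Log2 fold change (± SE) of 13 eIF3 subunit genes in enterocytes at 13 h against DMSO (orange) and at 25 h against 13 h (purple), with open bars for values that were not called and Eif3j2 left out for its low counts. Eif3c has its whole rise in the earlier interval, whereas Eif3e, Eif3f, Eif3h and Eif3m have the larger part in the later interval.

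The cap-binding complex eIF4F and its partners recruit mRNA. Of its 11 tested genes in enterocytes, 3 were higher and 1 lower at 13 h, and 6 were higher and 3 lower at 25 h. The 3 higher at 13 h and the 3 lower at 25 h are near the shares of all tested genes (23.8% and 24.2%). Eif4e, the cap-binding protein, had 53.9 and 54.5 CPM at 13 h and 53.0 and 49.4 CPM at 25 h, against 40.4 and 43.6 CPM in DMSO. All 4 tunicamycin libraries lay above DMSO (log2 fold changes 0.37 ± 0.06 and 0.28 ± 0.07), but at 25 h the call was lost without 25 h replicate 1 (adjusted p = 0.055) or DMSO replicate 1 (0.0538). Eif4e3, a minor cap-binding relative, had 9.78 and 9.48 CPM at 13 h and 15.5 and 13.8 CPM at 25 h, against 11.2 and 11.5 CPM in DMSO, with the 25 h libraries highest. Its call at 25 h (0.37 ± 0.11, edgeR adjusted p = 0.0158) was lost with DESeq2 (DESeq2 adjusted p = 0.147). It was lost with a stricter limit on mitochondrial UMIs (edgeR adjusted p = 0.0782). It was also lost without 25 h replicate 1 (log2 fold change 0.26), DMSO replicate 1 (0.33) or DMSO replicate 2 (0.36). Eif4b, which stimulates the helicase, was called higher at 25 h (0.36 ± 0.05, edgeR adjusted p = 1.23e-05) and had 0.08 ± 0.04 at 13 h (edgeR adjusted p = 0.163).

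Eif4e2, a cap-binding relative linked to repression, had 114 and 120.3 CPM at 13 h and 136 and 128 CPM at 25 h, against 110.0 and 111 CPM in DMSO, called higher at 25 h (0.25 ± 0.05). Eif4enif1, which carries eIF4E into the nucleus, had 19.0 and 17.1 CPM at 13 h and 17.9 and 16.7 CPM at 25 h, against 18.1 and 17.2 CPM in DMSO, with overlapping groups and no call.

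The scaffold genes went different ways. Eif4g1, the main scaffold, had 92.8 and 87.4 CPM at 13 h and 76.0 and 79.2 CPM at 25 h, against 91.8 and 86.0 CPM in DMSO. Its 13 h and DMSO libraries overlapped and both 25 h libraries lay below them, with a log2 fold change of -0.20 ± 0.06 at 25 h (edgeR adjusted p = 0.0118) that had an adjusted p of 0.074 without DMSO replicate 1, 0.0623 with DESeq2 and 0.119 with a stricter limit on mitochondrial UMIs. Eif4g3, its paralog, had 29.0 and 30.0 CPM at 13 h and 25.3 and 25.7 CPM at 25 h, against 33.1 and 31.6 CPM in DMSO, lowest at 25 h (-0.34 ± 0.08, edgeR adjusted p = 0.00169). Eif4g2, a scaffold known as DAP5 that lacks the binding site for eIF4E, had 357 and 359 CPM at 13 h and 310.0 and 303 CPM at 25 h, against 264 and 266 CPM in DMSO. It was higher at both times (0.43 ± 0.04 and 0.21 ± 0.04) and lower at 25 h than at 13 h (-0.22 ± 0.04, edgeR adjusted p = 0.00228).

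The helicase eIF4A is encoded by a pair of close paralogs. Eif4a1 had 246 and 239.9 CPM at 13 h and 243 and 245 CPM at 25 h, against 207 and 220.2 CPM in DMSO, with log2 fold changes of 0.19 ± 0.05 at 13 h and 0.19 ± 0.05 at 25 h. Both calls were lost without DMSO replicate 1 (adjusted p = 0.115 at 13 h and 0.101 at 25 h), and that at 13 h also without 13 h replicate 1 (0.0662). Eif4a2 had 429 and 432 CPM at 13 h and 464 and 439.9 CPM at 25 h, against 430.1 and 441 CPM in DMSO, with overlapping groups and 95% intervals of -0.11 to 0.08 at 13 h and -0.05 to 0.15 at 25 h. Eif4h, which aids the helicase, had 191 and 191 CPM at 13 h and 210.0 and 201 CPM at 25 h, against 225 and 231 CPM in DMSO. All 4 tunicamycin libraries were below DMSO, with log2 fold changes of -0.26 ± 0.05 at 13 h (edgeR adjusted p = 0.000334) and -0.15 ± 0.05 at 25 h (edgeR adjusted p = 0.0132). The 25 h call was lost with total-count scaling (adjusted p = 0.0925) and without 25 h replicate 2 (0.0804) or DMSO replicate 2 (0.0503). Eif4a3, the related helicase of the exon junction complex, had 46.2 and 48.1 CPM at 13 h and 44.8 and 45.1 CPM at 25 h, against 41.7 and 40.1 CPM in DMSO. Its call at 13 h (0.21 ± 0.06) was lost with DESeq2 (DESeq2 adjusted p = 0.151). It was also lost without 13 h replicate 2 (log2 fold change 0.15) or DMSO replicate 2 (0.16).

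Factors that act around subunit joining rose early. Eif5, the GTPase activator of eIF2, had 469.6 and 455 CPM at 13 h and 444 and 463 CPM at 25 h, against 280.3 and 276 CPM in DMSO. The 4 tunicamycin libraries overlapped one another and lay well above DMSO, with log2 fold changes of 0.73 ± 0.05 (edgeR adjusted p = 1.11e-08) and 0.70 ± 0.05 (edgeR adjusted p = 1.64e-08). Eif5b, the GTPase that joins the subunits, had 94.8 and 91.5 CPM at 13 h and 77.4 and 85.4 CPM at 25 h, against 78.5 and 76.6 CPM in DMSO, called higher at 13 h (0.26 ± 0.05) with a value of 0.07 ± 0.06 at 25 h that was not called. Eif6, which keeps the large subunit apart until it is mature, had 262 and 279.6 CPM at 13 h and 232 and 231 CPM at 25 h, against 211 and 221 CPM in DMSO. Its 13 h libraries were the highest (0.33 ± 0.05 against DMSO), and at 25 h the value was 0.10 ± 0.05 and was not called. Eif5a, the hypusine-bearing factor that helps ribosomes past difficult peptide bonds, had 401 and 398 CPM at 13 h and 421 and 414 CPM at 25 h, against 349.6 and 361 CPM in DMSO. It was higher at 25 h (0.23 ± 0.04, edgeR adjusted p = 0.000572), and its 13 h call (0.17 ± 0.04) was lost without 13 h replicate 1 (adjusted p = 0.0643), 13 h replicate 2 (0.0552) or DMSO replicate 1 (0.0956). Its paralog Eif5a2 had 0.657 and 0.526 CPM at 13 h and 0.378 and 0.807 CPM at 25 h, against 0.47 and 0.611 CPM in DMSO and was not tested.

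The eEF1 genes rose at both times. All 5 tested genes were higher at 13 h and all 5 at 25 h, each under every alternative. Eef1a1 (chr9:78478449-78489151, minus strand), the GTPase that delivers aminoacyl-tRNA, had 2833 and 2791 CPM at 13 h and 4642 and 4693 CPM at 25 h, against 2189 and 2307 CPM in DMSO. The 3 groups stood apart, with the 25 h libraries highest and DMSO lowest. Its log2 fold changes were 0.32 ± 0.04 at 13 h (edgeR adjusted p = 2.21e-05), 1.05 ± 0.04 at 25 h (edgeR adjusted p = 1.01e-10) and 0.73 ± 0.04 at 25 h against 13 h. Per enterocyte, 50.2 and 51.1 Eef1a1 UMIs were counted at 13 h and 86.6 and 91.0 at 25 h, against 35.6 and 36.4 in DMSO.

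Eef1g (chr19:8967041-8978479, plus strand), a subunit of the complex that recharges eEF1A with GTP, had 311 and 339 CPM at 13 h and 561 and 559 CPM at 25 h, against 213 and 219 CPM in DMSO. It had the largest fold change of the eEF1 genes at 25 h, 1.37 ± 0.05 (edgeR adjusted p = 4.01e-11), after 0.59 ± 0.05 at 13 h. Eef1b2, an exchange subunit, had 489 and 476 CPM at 13 h and 716 and 733 CPM at 25 h, against 404 and 423 CPM in DMSO. Eef1d, the other exchange subunit, had 182 and 190.4 CPM at 13 h and 241 and 245 CPM at 25 h, against 151 and 152 CPM in DMSO. In both genes the 25 h libraries were highest and DMSO lowest, without overlap. Exons of Eef1d overlap those of Naprt on the same strand, and exons of Eif4e3 those of Gm20696, so reads of each pair cannot be told apart. On the opposite strand, exons overlap between Eef1b2 and Ndufs1, Eif1ad and Banf1, Eif2b4 and Snx17, Eif2d and Rassf5, Eif5b and Rev1, Eif4a2 and Rfc4, Eif3j1 and Spg11, Eef1akmt3 and Mettl1, and Eif3m and Ccdc73, with the same limit. Eef1e1, known as AIMP3, is a scaffold of the multi-synthetase complex rather than a subunit of the exchange complex. It had 18.5 and 20.2 CPM at 13 h and 16.7 and 17.1 CPM at 25 h, against 10.5 and 12.0 CPM in DMSO, with log2 fold changes of 0.78 ± 0.10 at 13 h and 0.59 ± 0.11 at 25 h and no call at 25 h against 13 h (-0.20 ± 0.11, edgeR adjusted p = 0.222).

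Eef2 (chr10:81176631-81182498, plus strand), the translocase, and Eef2k (chr7:120842831-120907450, plus strand), the kinase that inactivates it, changed in opposite directions at 25 h. Eef2 had 1371 and 1389.5 CPM at 13 h and 1957 and 2003 CPM at 25 h, against 1342 and 1373 CPM in DMSO. Its 13 h libraries overlapped DMSO, with a log2 fold change of 0.02 ± 0.04 and a 95% interval of -0.07 to 0.11, and its 25 h libraries stood clear of both (0.54 ± 0.04 against DMSO, edgeR adjusted p = 8.91e-08). Eef2k had 16.8 and 18.6 CPM at 13 h and 21.3 and 20.6 CPM at 25 h, against 29.6 and 30.7 CPM in DMSO. All 4 tunicamycin libraries were below DMSO, with log2 fold changes of -0.77 ± 0.08 at 13 h (edgeR adjusted p = 1.9e-06) and -0.53 ± 0.08 at 25 h (edgeR adjusted p = 0.000114), both called under every alternative. The promoter stretches of this pair are among those printed above, each with an E-box.

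Enzymes that methylate elongation factors were rare messages. Eef2kmt, which methylates eEF2, had 10.1 and 10.5 CPM at 13 h and 13.2 and 11.8 CPM at 25 h, against 5.75 and 4.64 CPM in DMSO. The tunicamycin libraries were all above DMSO (log2 fold changes 0.99 ± 0.14 and 1.26 ± 0.15). Its exons overlap those of Alg1 on the opposite strand, so the pair cannot be told apart. Eef1akmt1 had 15.6 and 15.5 CPM at 13 h and 16.6 and 17.2 CPM at 25 h, against 15.0 and 15.8 CPM in DMSO, with overlap between 13 h and DMSO. Eef1akmt2 had 10.6 and 11.4 CPM at 13 h and 16.5 and 13.4 CPM at 25 h, against 10.5 and 9.04 CPM in DMSO. Both are lysine methyltransferases of eEF1A, and of these comparisons with DMSO only Eef1akmt2 at 25 h was called (0.60 ± 0.13, edgeR adjusted p = 0.00184).

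**Figure D3:**
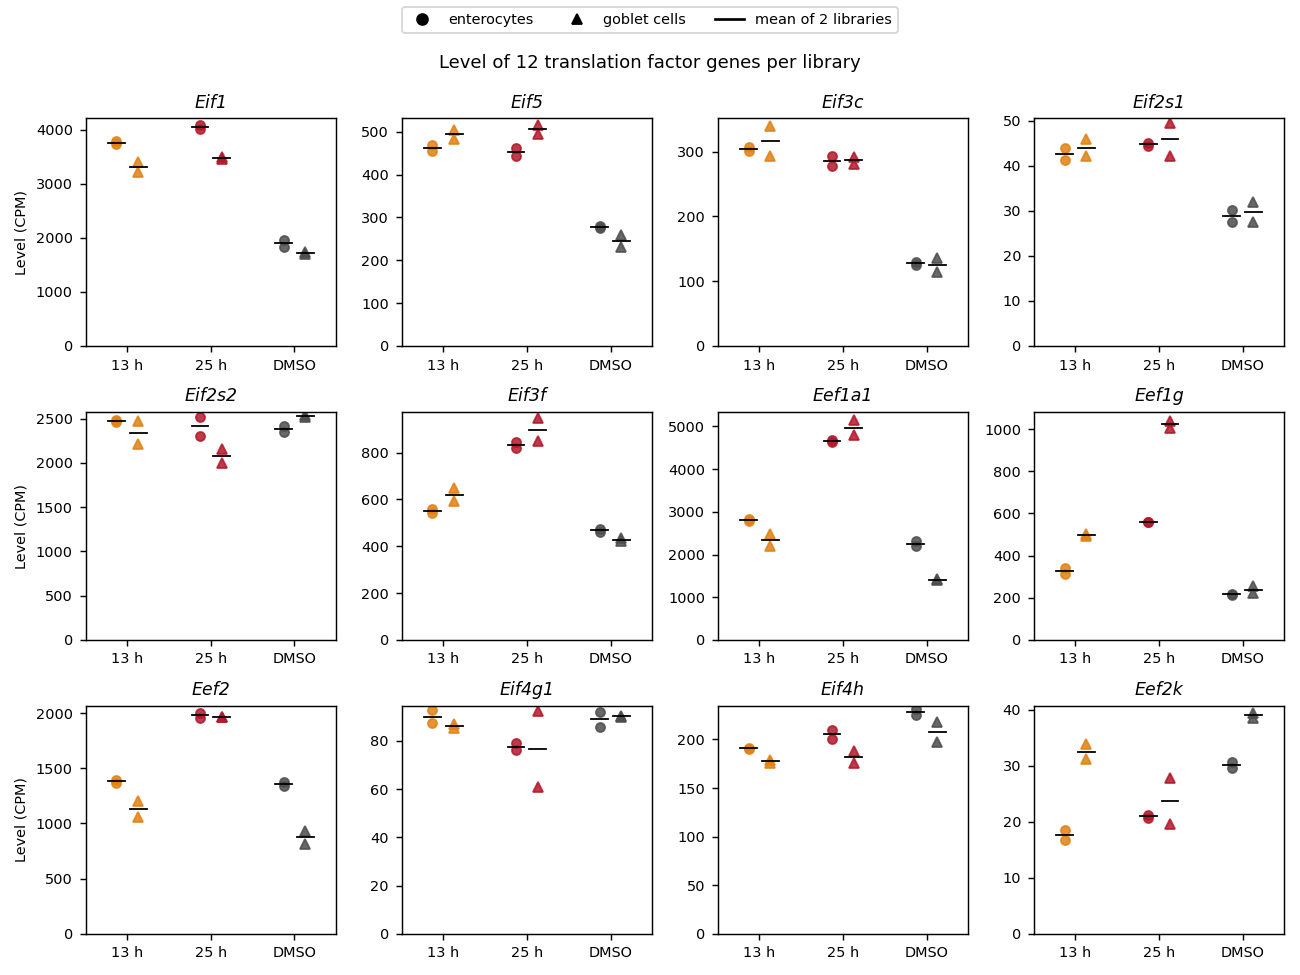
Level (CPM, linear axes from 0) of 12 members in each library at 13 h, 25 h and in DMSO, with circles for enterocytes, triangles for goblet cells and a bar at the mean of 2 libraries. Eif1, Eif5, Eif3c and Eif2s1 reach their tunicamycin level by 13 h, Eif3f, Eef1a1, Eef1g and Eef2 are highest at 25 h in both classes, and Eef2k is lower in every tunicamycin library than in DMSO of the same class.

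Goblet cells are the mucus-secreting class. At 13 h against DMSO 26 of 53 tested members were higher, 0 lower and 27 not called, where 10.8% of all 7839 tested genes were higher and 11.5% lower. Of the 53 members, none passed in the lower direction in any alternative that leaves out a library. At 25 h against DMSO 33 were higher, 2 lower and 18 not called, against 15.8% of all tested genes higher and 16.0% lower. At 25 h against 13 h, 9 were higher and 0 lower, against 2.03% higher and 1.47% lower. Of the higher calls, 16 of 26 at 13 h, 24 of 33 at 25 h and 4 of 9 at 25 h against 13 h were made under every alternative, and of the 2 lower calls at 25 h 0 were. The members' median log2 fold changes were 0.49, 0.76 and 0.13 in these 3 comparisons, with medians of all tested genes between −0.01 and 0.00. With total-count scaling the median of all goblet genes moved to 0.16 at 13 h and 0.13 at 25 h and that of the members to 0.65 and 0.89, and the share of higher genes among all calls went to 68.4% and 63.8%, in place of 48.4% and 49.6%. The 9 goblet markers, which include the mucin Muc2, took less of the goblet UMIs under treatment, with a summed level of 113500 and 121700 CPM at 13 h and 79670 and 96090 CPM at 25 h, against 197000 and 183500 CPM in DMSO, and their part in these results was not tested. Paneth cell markers in the goblet class summed to 626 and 374 CPM at 13 h and 236 and 317 CPM at 25 h, against 653 and 405 CPM in DMSO. Enterocyte markers there summed to 1959 and 1740 CPM at 13 h and 1760 and 1140 CPM at 25 h, against 3521 and 3025 CPM in DMSO. The part of these 2 lists was not tested either.

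Eef1a1 in goblet cells had 2475 and 2203 CPM at 13 h and 4806 and 5144 CPM at 25 h, against 1395 and 1426 CPM in DMSO. The 3 groups did not overlap, with log2 fold changes of 0.73 ± 0.10 at 13 h (edgeR adjusted p = 9.78e-06) and 1.82 ± 0.10 at 25 h (edgeR adjusted p = 2.05e-11). Eef1g had 503 and 492 CPM at 13 h and 1005 and 1038 CPM at 25 h, against 256 and 220.2 CPM in DMSO, again without overlap (1.06 ± 0.11 and 2.10 ± 0.11). Eef1b2 had 478 and 437 CPM at 13 h and 839 and 869 CPM at 25 h, against 262 and 304 CPM in DMSO. Eef1d had 160.3 and 179 CPM at 13 h and 229 and 226 CPM at 25 h, against 92.4 and 107 CPM in DMSO. Both had all tunicamycin libraries above DMSO, with 1.59 ± 0.11 and 1.19 ± 0.13 at 25 h. Eef1e1 was counted in 18 and 22 UMIs at 13 h and 34 and 29 UMIs at 25 h, against 7 and 4 UMIs in DMSO, and its log2 fold change of 2.33 ± 0.39 at 25 h rests on those few counts.

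Eef2 in goblet cells had 1203 and 1055 CPM at 13 h and 1962 and 1961 CPM at 25 h, against 931 and 818 CPM in DMSO. All tunicamycin libraries were above DMSO and the 25 h libraries highest, with 1.17 ± 0.10 at 25 h (edgeR adjusted p = 2.48e-08). The 13 h value of 0.37 ± 0.10 was called (edgeR adjusted p = 0.0123) but not without 13 h replicate 1 (adjusted p = 0.188) or DMSO replicate 2 (0.199). Eef2k had 33.9 and 31.2 CPM at 13 h and 27.7 and 19.5 CPM at 25 h, against 39.5 and 38.5 CPM in DMSO. It was called lower at 25 h (-0.70 ± 0.23, edgeR adjusted p = 0.0234). The call was lost with DESeq2 (DESeq2 adjusted p = 0.243) and with total-count scaling (edgeR adjusted p = 0.0669). It was also lost without 25 h replicate 2 (log2 fold change -0.49), DMSO replicate 1 (-0.69) or DMSO replicate 2 (-0.73).

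Initiation factor genes in goblet cells gave values near those in enterocytes for several of the early genes. Eif1 had 3398 and 3208 CPM at 13 h and 3449 and 3492 CPM at 25 h, against 1703 and 1731 CPM in DMSO (0.94 ± 0.09 and 1.02 ± 0.09). Eif5 had 483 and 505 CPM at 13 h and 494 and 517 CPM at 25 h, against 230.2 and 259 CPM in DMSO (1.01 ± 0.11 and 1.04 ± 0.11). Eif3c had 339.9 and 293 CPM at 13 h and 281 and 292 CPM at 25 h, against 113 and 136 CPM in DMSO (1.34 ± 0.13 and 1.20 ± 0.13). In each of the 3 genes both tunicamycin groups lay above DMSO and close to each other. Of 13 tested eIF3 genes, 11 were called higher at 13 h and 13 at 25 h. Eif3f had 648 and 591 CPM at 13 h and 851 and 946 CPM at 25 h, against 434 and 422 CPM in DMSO. Eif3e had 197 and 193 CPM at 13 h and 283 and 281 CPM at 25 h, against 108 and 116 CPM in DMSO. Both were highest at 25 h. At 25 h against 13 h their log2 fold changes were 0.54 ± 0.10 and 0.53 ± 0.11. The Eif3f call was lost without 13 h replicate 2 (log2 fold change 0.47). The Eif3e call was lost without any of the 4 libraries compared (0.55 and 0.52 without 13 h replicate 1 or 2, 0.52 and 0.53 without 25 h replicate 1 or 2). Of the 5 eIF3 calls in this comparison, 0 were made under every alternative.

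Eif3k in goblet cells had 250.1 and 243 CPM at 13 h and 342 and 351 CPM at 25 h, against 145 and 202 CPM in DMSO. Eif3i had 135 and 108 CPM at 13 h and 189 and 192 CPM at 25 h, against 67.2 and 72.3 CPM in DMSO. In both genes every tunicamycin library was above DMSO. Eif5a had 538 and 533 CPM at 13 h and 571 and 643 CPM at 25 h, against 391 and 369.6 CPM in DMSO, also without overlap (0.50 ± 0.11 and 0.67 ± 0.10). Eif2s2 had 2468 and 2208 CPM at 13 h and 1996 and 2154 CPM at 25 h, against 2543 and 2517 CPM in DMSO, and was called lower at 25 h (-0.29 ± 0.09, edgeR adjusted p = 0.0249). That call was lost with total-count scaling (edgeR adjusted p = 0.23), the replicate block (edgeR adjusted p = 0.0515) and DESeq2 (DESeq2 adjusted p = 0.06). It was also lost without 25 h replicate 1 (log2 fold change -0.23), DMSO replicate 1 (-0.28) or DMSO replicate 2 (-0.30). Eif4a1 and Eif4a2 stood in a different balance in the 2 classes. For each Eif4a2 UMI, goblet cells held 1.43 and 1.35 Eif4a1 UMIs at 13 h, 1.30 and 1.29 at 25 h and 1.00 and 1.05 in DMSO, and enterocytes held 0.572 and 0.555, 0.524 and 0.557, and 0.480 and 0.499 in the same groups.

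Levels were also compared between the classes in DMSO. In a model of both classes with the library as a block, 9 of 56 tested members were higher in goblet cells than in enterocytes and 11 were lower, where 17.0% of all 10458 tested genes were higher and 18.1% lower. These counts are near the shares of all genes, so no difference of the members as a set was read from them. Eif6 (0.73 ± 0.08, edgeR adjusted p = 5.28e-10), Eif5b (0.83 ± 0.10, edgeR adjusted p = 1.19e-08) and Eif4a1 (0.57 ± 0.08, edgeR adjusted p = 2.55e-07) were higher in goblet cells under every alternative run for this model, which did not include DESeq2. Eef1a1 (-0.59 ± 0.06, edgeR adjusted p = 4.51e-11), Eef2 (-0.55 ± 0.07), Eef1d (-0.52 ± 0.10), Eef1b2 (-0.46 ± 0.08), Eif3k (-0.67 ± 0.09), Eif3e (-0.44 ± 0.10) and Eif4a2 (-0.50 ± 0.08) were lower in goblet cells under every alternative run for this model. With total-count scaling, the count of members called higher was 4 and the count called lower was 20, and the median of all genes moved to −0.18. The share of higher genes among all calls was 33.5% under that scaling, in place of 48.4%. Without DMSO replicate 1 or DMSO replicate 2 the count of higher members was 4, without 25 h replicate 1 it was 5, and without DMSO replicate 2 the count of lower members was 7.

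The response to tunicamycin was tested for a difference between classes as an interaction. At 25 h 9 members rose more in goblet cells than in enterocytes and 1 changed the other way, against 2.55% of all tested genes in the higher direction and 4.50% in the lower. The count of 9 was 5 without 25 h replicate 2 or DMSO replicate 1, and the 1 lower call (Eif2s2) was lost without any of the 25 h or DMSO libraries (adjusted p from 0.0648 to 0.239). Eef1a1 (0.72 ± 0.08, edgeR adjusted p = 1.38e-08), Eef1b2 (0.75 ± 0.11, edgeR adjusted p = 2.86e-06), Eef1g (0.69 ± 0.11, edgeR adjusted p = 2.81e-05) and Eef2 (0.58 ± 0.09, edgeR adjusted p = 2.26e-05) kept this call under every alternative run for the class model. DESeq2 and the replicate block were not among those. At 13 h 4 members had a larger rise in goblet cells and 0 a smaller, against 1.48% and 3.33% of all tested genes, and without 13 h replicate 1 that count was 0. Without 25 h replicate 1 the count at 13 h was 7. With total-count scaling it was 11, and the share of higher genes among all interaction calls was 59.0% at both times, in place of 30.8% at 13 h and 36.2% at 25 h. Eif1 and Eif3c did not pass, with interaction values of -0.12 ± 0.08 and -0.00 ± 0.13 at 25 h. Eef2, lower in goblet cells than in enterocytes in DMSO, was level between the classes at 25 h, each scaled within its class: it had 1962 and 1961 CPM in goblet cells, against 1957 and 2003 CPM in enterocytes.

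**Figure D4:**
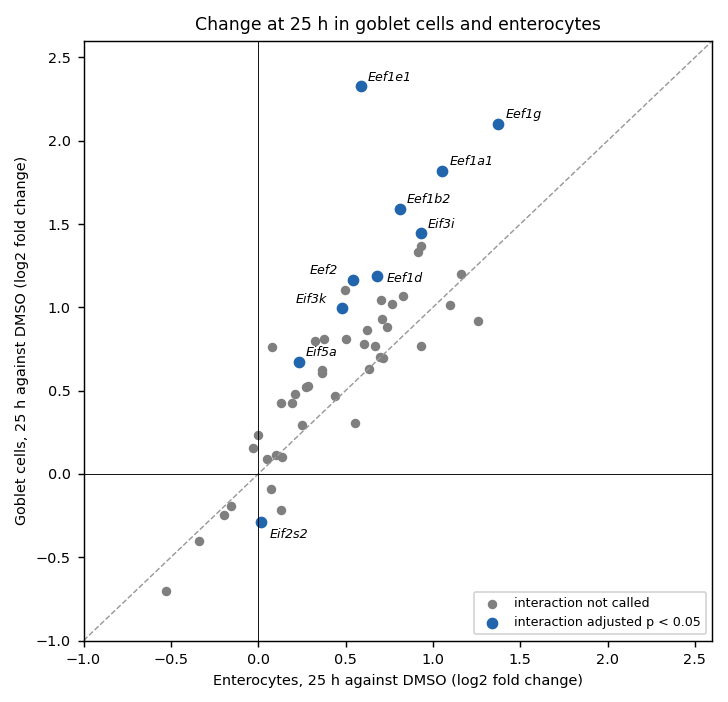
Log2 fold change at 25 h against DMSO in goblet cells (vertical axis) and enterocytes (horizontal axis) for the 53 members tested in both classes, with members whose class by treatment interaction had an adjusted p below 0.05 in blue and named. The dashed line marks equal change, and Eef1e1, Eef1g, Eef1a1, Eef1b2 and Eef2 lie above it.

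The class named tuft had 12 to 27 kept cells per library, so its values are descriptions without a test. Its tuft markers summed to 257 and 638 CPM at 13 h and 552 and 139 CPM at 25 h, against 65.1 and 75.5 CPM in DMSO, where Il25 was at 0 in both libraries. Sh2d6 was at 0 in 4 of the 6 libraries, and the other classes held 1.55 to 11.0 CPM of these markers. Its members took 2.13% and 1.96% of UMIs at 13 h and 2.38% and 2.29% at 25 h, against 1.77% and 1.49% in DMSO. Eef1a1 had 4928 and 4582 CPM at 13 h and 6383 and 5640.3 CPM at 25 h, against 3655 and 3811 CPM in DMSO, with every tunicamycin library above both DMSO libraries. Eif1 had 2691 and 2548 CPM at 13 h and 3715 and 3070.2 CPM at 25 h, against 2146 and 1487 CPM in DMSO, in the same order. Eif4a1 had 851 and 565 CPM at 13 h and 572 and 947 CPM at 25 h, against 934 and 538 CPM in DMSO, with overlapping groups. Enteroendocrine markers in this class summed to 13.0 and 61.5 CPM at 13 h and 60.8 and 58.4 CPM at 25 h, against 66.4 and 148 CPM in DMSO. Paneth cell markers summed to 0 to 13.5 CPM in its tunicamycin libraries and 75.0 and 59.7 CPM in DMSO. Goblet markers summed to 425 to 4088 CPM in its tunicamycin libraries and 2677 and 6836 CPM in DMSO, enterocyte markers to 304 to 1468 CPM and 800 and 4452 CPM, and stem and cycling markers to 30.6 to 85.2 CPM and 11.1 and 18.9 CPM in the same groups. The part of these markers and of the tuft markers in the values was not tested.

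Genes that act on these factors were counted from lists of other pathway genes. Among inhibitors and kinases, 4 of 15 tested genes were higher and 2 lower at 13 h in enterocytes, and 3 were higher and 2 lower at 25 h, where 23.8% of all tested genes were higher and 23.8% lower at 13 h, and 26.1% and 24.2% at 25 h. Eif4ebp1, the inhibitor that holds eIF4E, had 415 and 403 CPM at 13 h and 429 and 436 CPM at 25 h, against 105 and 112 CPM in DMSO (log2 fold change 1.91 ± 0.05 at 13 h, edgeR adjusted p = 8.24e-13; edgeR adjusted p = 1.16e-12 at 25 h). It stood far above DMSO in every tunicamycin library. Ppp1r15a, the inducible subunit of the phosphatase that restores eIF2, had 1.14 ± 0.09 and 0.76 ± 0.10. Mknk2, a kinase of eIF4E, was lower (-0.58 ± 0.06 and -0.47 ± 0.07), and so was Eif2ak2, the kinase PKR (-0.55 ± 0.12 and -0.68 ± 0.14). Of the poly(A)-binding proteins and partners 4 of 6 were higher at 13 h and 3 at 25 h, none lower, with Pabpc1, the main cytoplasmic form and also a TOP mRNA, at 0.38 ± 0.05 and 0.74 ± 0.05, and Pabpc4 at 0.77 ± 0.10 and 0.97 ± 0.10.

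Among genes of termination, recycling and rescue in enterocytes, 5 of 8 were higher at 13 h, and 4 were higher and 1 lower at 25 h. Of all genes tested in enterocytes, 23.8% were higher at 13 h, and 26.1% were higher and 24.2% lower at 25 h. Denr, which helps release and reinitiate ribosomes, had 0.82 ± 0.09 and 1.02 ± 0.10, and Etf1, the release factor, had 0.53 ± 0.06 and 0.57 ± 0.06. Gspt1, its GTPase partner, was the gene that fell at 25 h (-0.27 ± 0.07, edgeR adjusted p = 0.00634), with 0.02 ± 0.06 at 13 h. Of the genes that make hypusine on eIF5A and diphthamide on eEF2, 4 of 8 were higher at 13 h and 6 at 25 h, against the same shares of all tested genes. Dph3 had 0.71 ± 0.05 and 0.47 ± 0.05. In goblet cells Eif4ebp1 had 1.67 ± 0.12 and 1.81 ± 0.12 and Pabpc1 0.62 ± 0.11 and 1.08 ± 0.11, and of the 14 inhibitors and kinases tested 2 were higher and 2 lower at 13 h, and 2 higher and 3 lower at 25 h, near the shares of all tested goblet genes (10.8% higher and 11.5% lower at 13 h, 15.8% higher and 16.0% lower at 25 h).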

How the data were processed

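Single-cell 3′ RNA libraries (10x, V2 chemistry) gave UMI counts per gene and cell, deposited by the authors as raw counts with a class for each cell. Cell Ranger and the build mm10 are named in the submitters' processing notes, and the version, intron use and strand setting are not given there. Of 5122 deposited cells, 5026 were kept at no more than 25% mitochondrial UMIs. A doublet caller (scanpy 1.11.5) marked 31 cells (0.605%), which were left out in an alternative only. Ensembl IDs were matched to GENCODE vM21 symbols (27645 of 27998). Counts were summed per library and class and tested with edgeR 4.0.16 (R 4.3.3; TMM scaling, filterByExpr with a minimum count of 10, quasi-likelihood F test, Benjamini-Hochberg adjustment over all tested genes), with all 3 groups in each fit. The class model took 12 sums with the library as a block. CPM values are counts divided by the TMM-scaled library size (by total UMIs for the class named tuft). Libraries held 9432005 to 19539013 kept UMIs, so precision is limited mainly by 2 libraries per group, and by counts in members under about 1 CPM. The interval and limit from 0 counts cover counting error only. Alternatives were RLE size factors, total counts, DESeq2 1.42.0, no filter, other cell limits, all cells in place of enterocytes, a fit of only the groups compared, the replicate block and each library left out. The class model was run only with RLE size factors, total counts, no filter, other cell limits and each library left out. The fit was tested on simulated data. Levels in every library are given for the 2 most abundant members of each factor group, its highest and lowest called fold change at 13 h and 25 h in enterocytes, members called lower there at a mean of 5 CPM or more, members called in an interaction, and a set of central factors (Eif2s1, Eif2b2, Eif4e, Eif4a1, Eif4a2, Eif4g1, Eif4g2, Eif4g3, Eif5, Eif5a, Eif6, Eef1a1, Eef1g, Eef2 and Eef2k). Of each other list, up to 4 genes with the lowest adjusted p could be named. The members and lists were chosen with earlier results of these data known.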

Additional observations from a re-analysis of the deposited data

Results flagged for a closer look

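A total of 14 changes differed between goblet cells and enterocytes in the test of the difference itself, as a class by treatment interaction in edgeR's quasi-likelihood test with Benjamini-Hochberg adjustment. Each value is the log2 fold change in goblet cells minus that in enterocytes (± SE). At 13 h Eef1a1 had 0.36 ± 0.08 (edgeR adjusted p = 0.00269), Eef1b2 0.43 ± 0.11 (edgeR adjusted p = 0.0124), Eef1g 0.44 ± 0.12 (edgeR adjusted p = 0.0173) and Eif3e 0.50 ± 0.13 (edgeR adjusted p = 0.0137). All 4 calls were lost without 13 h replicate 1 (adjusted p = 0.0941, 0.158, 0.242 and 0.139 in the order given). Those of Eef1b2 (0.167) and Eif3e (0.0746) were also lost without DMSO replicate 1, those of Eef1g (0.26) and Eif3e (0.109) without DMSO replicate 2, and that of Eif3e without 13 h replicate 2 (0.055).

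At 25 h the elongation factor genes had 0.72 ± 0.08 (Eef1a1, edgeR adjusted p = 1.38e-08), 0.75 ± 0.11 (Eef1b2, edgeR adjusted p = 2.86e-06), 0.47 ± 0.13 (Eef1d, edgeR adjusted p = 0.0201), 0.69 ± 0.11 (Eef1g, edgeR adjusted p = 2.81e-05) and 0.58 ± 0.09 (Eef2, edgeR adjusted p = 2.26e-05). Eef1e1 had 1.73 ± 0.43 (edgeR adjusted p = 0.00667), on few goblet UMIs. Among initiation factors, Eif3i had 0.48 ± 0.15 (edgeR adjusted p = 0.0415), Eif3k 0.48 ± 0.13 (edgeR adjusted p = 0.0106) and Eif5a 0.40 ± 0.11 (edgeR adjusted p = 0.0157). Eif2s2 was the member with a negative difference, -0.34 ± 0.08 (edgeR adjusted p = 0.00478). The direction was that of the reported value in all alternatives run, and the calls that held in each of them were those of Eef1a1, Eef1b2, Eef1g and Eef2 at 25 h. Without DMSO replicate 1 the adjusted p was 0.267 for Eef1d, 0.233 for Eif3i, 0.382 for Eif3k, 0.0504 for Eif5a and 0.0734 for Eif2s2. Without 25 h replicate 2 it was 0.0686, 0.0847, 0.0672, 0.258 and 0.0648 for the same genes. Without DMSO replicate 2 it was 0.214 for Eef1e1, 0.111 for Eif3i, 0.124 for Eif5a and 0.146 for Eif2s2, and without 25 h replicate 1 0.0992 for Eif3i and 0.239 for Eif2s2.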

How the results depend on the processing

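No value that was called changed direction. Counts of called members stayed within 1.5 times of the reported ones under alternatives other than leaving out a library, with the exceptions below. The causes of these exceptions were not tested. With DESeq2 the 6 members lower in enterocytes at 25 h against 13 h were 3. In goblet cells at 25 h against DMSO the 2 lower members were 0 with total counts, 0 with DESeq2 and 1 with the replicate block. For goblet minus enterocyte in DMSO, total counts gave 4 higher and 20 lower members, and no filter gave 5 higher. At 13 h, members with a larger response in goblet cells numbered 11 with total counts, and those with a smaller one 1 without called doublets. At 25 h the single smaller response was 0 with total counts.

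Leaving out each library in turn gave these ranges of counts. Enterocytes had 30 to 37 higher and 2 to 2 lower at 13 h, 37 to 40 and 3 to 4 at 25 h, and 14 to 18 and 3 to 6 at 25 h against 13 h. Goblet cells had 20 to 26 higher and 0 to 0 lower at 13 h, 26 to 34 and 0 to 2 at 25 h, and 4 to 9 and 0 to 0 at 25 h against 13 h. The DMSO class difference had 4 to 8 higher and 7 to 14 lower, the interaction at 13 h 0 to 7 and 0 to 0, and that at 25 h 5 to 9 and 0 to 1. Same-numbered libraries did not deviate together (correlations of deviations −0.0281 to 0.00726 in enterocytes and −0.0190 to −0.0123 in goblet cells), so the replicate block is an alternative without a pairing behind it. Fold changes over all alternatives were also compared for the members chosen by the rule for printing levels, not for all tested members. Of these values, 3788 kept their side of the threshold, 152 lost their call and 13 gained one. The 3788 include values that were called in neither fit. Members under about 1 CPM and all goblet values rest on few UMIs or cells, and 2 libraries per group limit every test.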
